A study of Mus musculus with 7 samples.

Results

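Mast cells and basophils are rare granulated cells that carry immunoglobulin E (IgE) on their surface, and 10 genes that mark them were followed in mouse spleen by RNA sequencing. The genes were taken from a list of symbols (Tpsb2, Tpsab1, Mcpt4, Cma1, Cpa3, Mcpt8, Kit, Fcer1a, Ms4a2 and Hdc), and 9 of them were measured among the 22173 genes of the table. Tpsab1 was not analysed here, and RefSeq annotates it as a transcribed pseudogene in the GRCm38 reference genome (chromosome 17, 25343245 to 25345562). The 7 libraries came from 2 groups of spleens, both taken 30 days after hepatocytes had been injected into the organ. In the sHA-X group (4 libraries) the spleen had been remodelled by 4 injections of a biomaterial known here by its code name, and in the PBS group (3 libraries) phosphate-buffered saline took its place. Spleens of both groups therefore carried a hepatocyte injection, and a spleen without one was not analysed here. Strain, sex and age of the mice, and whether each library came from a separate animal, are not stated in the sources that were used. The p-values are therefore a measure of the spread between libraries, which may be technical.

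Mast cells mature in tissues, mostly in connective tissue and around vessels, under the growth factor Kit ligand, which acts through the receptor Kit. Their granules hold histamine, tryptases, chymases and a carboxypeptidase bound to proteoglycan, which are released when antigen crosslinks IgE on the high-affinity receptor FcεRI. Basophils circulate through blood and spleen, also carry FcεRI and also make histamine, but in the mouse they are marked by another granule protease, Mcpt8, and have little Kit. Not every gene of the list is restricted to these cells, since Kit also marks blood progenitors and Hdc is also expressed in neutrophils.

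Promoters are shown for 4 protease genes and for Ms4a2, because the proteases rose together with the exception of Mcpt8 and because Ms4a2 had the most matches to the motif searched. GATA2, a transcription factor of both cell types, binds GATA sites, so the core GATA, preceded by A or T and followed by A or G, was searched on both strands in the 250 bases before the listed RefSeq transcript start, which need not be the outermost start of the gene. Each line gives the strand of the gene, 5′ to 3′, from the GRCm38.p6 table of RefSeq, and capitals mark a matching word on either strand.
Mcpt4 (chr14:56062311-56062560, minus strand): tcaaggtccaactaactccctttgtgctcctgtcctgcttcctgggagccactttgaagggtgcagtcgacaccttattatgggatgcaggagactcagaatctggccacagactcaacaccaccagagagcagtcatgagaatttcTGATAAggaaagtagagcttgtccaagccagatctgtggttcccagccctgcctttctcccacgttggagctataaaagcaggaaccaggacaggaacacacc
Cma1 (chr14:55944676-55944925, minus strand): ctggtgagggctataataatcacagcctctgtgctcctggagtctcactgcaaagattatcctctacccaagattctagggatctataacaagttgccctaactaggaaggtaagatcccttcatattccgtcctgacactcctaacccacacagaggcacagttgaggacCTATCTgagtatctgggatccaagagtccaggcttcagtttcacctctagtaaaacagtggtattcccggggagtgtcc
Cpa3 (chr3:20242182-20242431, minus strand): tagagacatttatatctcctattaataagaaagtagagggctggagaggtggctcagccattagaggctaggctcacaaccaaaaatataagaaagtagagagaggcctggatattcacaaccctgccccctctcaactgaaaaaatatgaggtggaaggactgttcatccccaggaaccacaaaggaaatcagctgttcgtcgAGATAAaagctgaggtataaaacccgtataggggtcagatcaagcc
Mcpt8 (chr14:56085198-56085447, minus strand): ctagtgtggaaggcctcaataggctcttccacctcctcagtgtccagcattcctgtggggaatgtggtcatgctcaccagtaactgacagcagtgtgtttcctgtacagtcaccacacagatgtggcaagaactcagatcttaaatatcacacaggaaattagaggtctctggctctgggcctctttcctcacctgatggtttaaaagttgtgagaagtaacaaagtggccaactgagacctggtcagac
Ms4a2 (chr19:11623720-11623969, minus strand): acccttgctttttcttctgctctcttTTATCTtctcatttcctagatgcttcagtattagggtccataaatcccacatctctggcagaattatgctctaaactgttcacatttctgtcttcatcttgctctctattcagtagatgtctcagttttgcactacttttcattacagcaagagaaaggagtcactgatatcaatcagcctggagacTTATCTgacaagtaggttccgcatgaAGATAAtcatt

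Of the 9 measured genes 8 had a promoter entry, all but Tpsb2, and 6 of these held a GATA word. The word lay 103 bases before the start in Mcpt4, 79 in Cma1 and 46 in Cpa3. It lay 92 bases before the start in Fcer1a and 221 in Hdc, and Ms4a2 held 3 such words. Mcpt8 and Kit held none in this window. The windows of Mcpt8 and Hdc lie wholly inside the spans of these genes, which end at 56085499 and 126624025, so the windows are not alike across the genes. Among all 32851 RefSeq windows of this length, 26.5% held such a word, so a match is common and is given as a description of the letters only. An E-box, searched on both strands as CATGTG or as the palindrome CACGTG, was held by 17.6% of windows, and among the members by Fcer1a.

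Values are FPKM, fragments scaled to transcript length and library size, and are listed by library or summarised as mean ± SD over the 3 PBS libraries and the 4 sHA-X libraries. The reads behind each value were recovered from the steps between values, and the libraries held 29527470 to 37122285 recovered reads. Spleen markers were present in every library, with the red pulp macrophage factor Spic at 65.2 to 114 FPKM and the B cell receptor gene Cd79a at 414 to 700.0 FPKM. PBS replicate 2 stood apart by pancreatic acinar genes, with a summed level of 993.3 FPKM over 10 genes against 15.5 to 35.2 FPKM in the other libraries. sHA-X replicate 2 stood apart by skeletal muscle genes, with 201.8 FPKM over 8 genes against 8.25 to 16.3 FPKM elsewhere.

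The genes of 4 mast cell granule proteases, Tpsb2, Mcpt4, Cma1 and Cpa3, were higher in sHA-X spleens. So were Hdc, which encodes the enzyme that makes histamine, and Fcer1a, which encodes the IgE-binding chain of FcεRI. The basophil protease gene Mcpt8 and the growth factor receptor gene Kit did not pass the test, and Ms4a2, the β chain gene of FcεRI, was too low for it. In limma on log2(FPKM + 1), with p-values adjusted over all genes tested, 6 members were higher at an adjusted p under 0.05, against 9.30% of the 11920 genes tested. None was lower, against 5.03% of the genes tested. In spleen tissue, more cells of a type and more RNA per cell cannot be told apart.

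Scaling moved the balance of calls over all genes, from 1108 higher and 600 lower to 1001 and 843 with median-of-ratios scaling and to 758 and 938 with quantile normalization. The 6 members passed under both. The fit kept genes with a mean of at least 1 FPKM, which 8 members reached, and Tpsb2, Mcpt4 and Fcer1a reached it only through their sHA-X values, so a count over the members that passed is no measure of the list. With no filter all 9 were tested and the same 6 passed, against 6.24% of 16889 genes that were higher. For these 6 genes every sHA-X library lay above every PBS library, as it did for 17.2% of the 11920 genes. Without PBS replicate 2, the library with acinar genes, 4 members were higher, Tpsb2, Mcpt4, Fcer1a and Hdc, and the same 4 were higher when sHA-X replicate 2 was left out too.

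**Figure D1:**
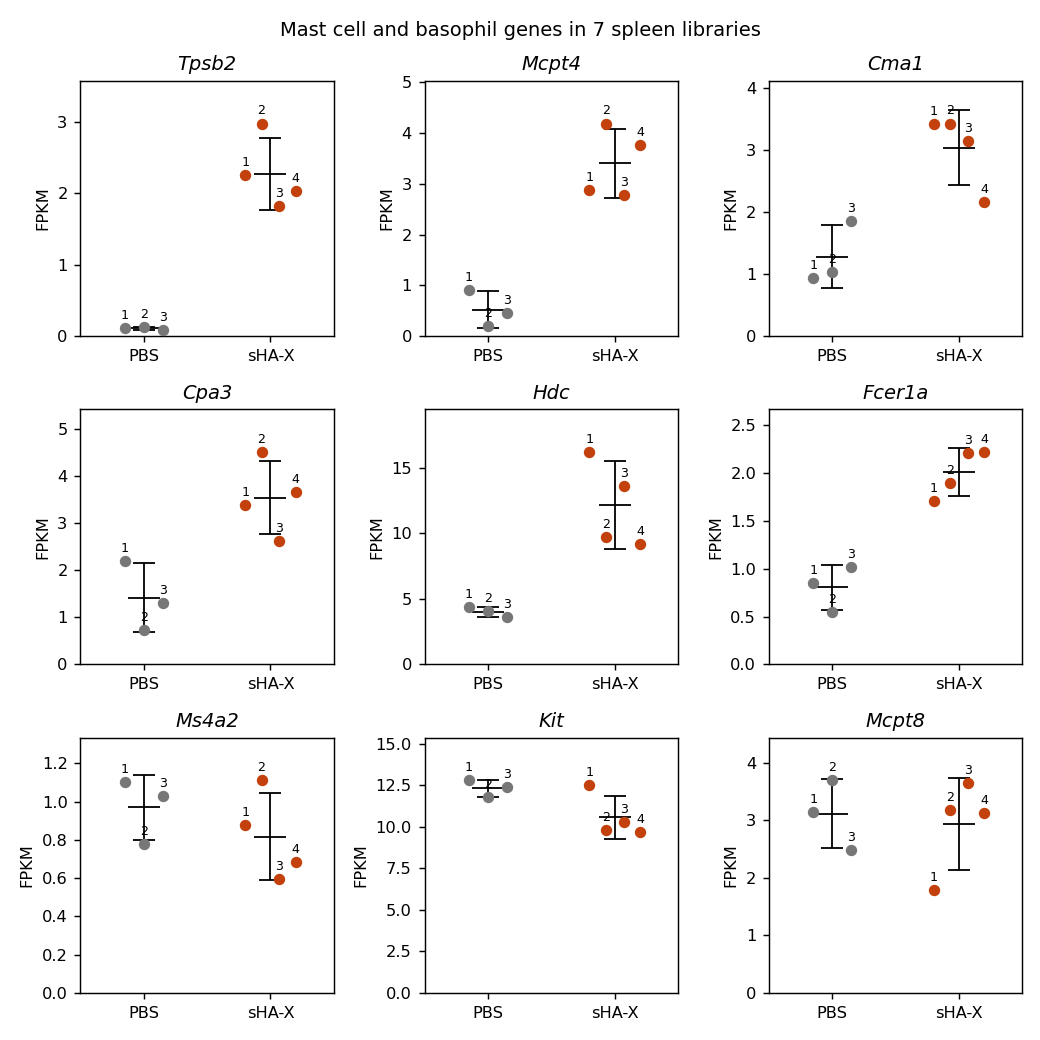
FPKM of the 9 measured genes in each library (points, numbered by replicate, 3 PBS and 4 sHA-X), with the group mean and SD, on a separate linear axis from 0 for each gene. Every sHA-X library lies above every PBS library for Tpsb2, Mcpt4, Cma1, Cpa3, Fcer1a and Hdc, and the groups overlap for Mcpt8, Kit and Ms4a2.

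Tpsb2 encodes tryptase beta 2, a trypsin-like protease stored with heparin in connective tissue mast cells (NCBI gene 17229, chromosome 17, 25366308 to 25368096, GRCm38). It was at 0.118, 0.119 and 0.0852 FPKM in PBS replicates 1 to 3, which came from 4, 4 and 3 reads. In sHA-X replicates 1 to 4 it was at 2.26, 2.98, 1.82 and 2.04 FPKM, from 76, 93, 64 and 80 reads. All PBS libraries were close to the detection limit and all sHA-X libraries were well above it. Summed over each group, 313 reads against 11 gave a share of reads 21.0-fold higher in sHA-X, with an exact 95% interval of 11.6 to 42.5 that covers counting error only. On the log2(FPKM + 1) scale, which understates changes of low genes, the change was 1.55 (SE 0.12, adjusted p = 0.0004 by limma). Tpsb2 passed in all 18 alternative fits.

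Mcpt4 encodes the chymotrypsin-like chymase mMCP-4 of connective tissue mast cells (NCBI gene 17227, chromosome 14, 56059744 to 56062310). Its PBS values were 0.91, 0.19 and 0.453 FPKM, from 29, 6 and 15 reads. Its sHA-X values were 2.88, 4.19, 2.78 and 3.76 FPKM, from 91, 123, 92 and 139 reads. PBS replicate 2 was the lowest of all libraries, and the lowest sHA-X library exceeded the highest PBS library. The sums of 445 and 50 reads gave a 6.56-fold higher share of reads in sHA-X (exact 95% interval 4.89 to 8.98, counting error only), and the log2 change was 1.55 (SE 0.18, adjusted p = 0.0015 by limma). Of its 1059 stretches of 50 bases, 5.48% also occur in the transcript of Cma2, another chymase gene of the same locus. Cma2 was at 0 FPKM in 6 of the 7 libraries and at 0.123 FPKM in sHA-X replicate 2.

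Cma1 encodes the chymase mMCP-5, which in mouse mast cells has elastase-like activity (NCBI gene 17228, chromosome 14, 55941451 to 55944675). It was at 0.941, 1.03 and 1.86 FPKM in the PBS libraries and at 3.42, 3.43, 3.15 and 2.16 FPKM in the sHA-X libraries. PBS replicate 3 and sHA-X replicate 4 were the closest values of the groups, and they did not overlap. The means were 1.28 ± 0.509 and 3.04 ± 0.599 FPKM, a ratio of 2.38, and the log2 change was 0.84 (SE 0.17, adjusted p = 0.015 by limma). Cma1 no longer passed without PBS replicate 1 (adjusted p = 0.07), without PBS replicate 2 (adjusted p = 0.055) and without both second libraries (adjusted p = 0.11).

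Cpa3 encodes mast cell carboxypeptidase A, which trims peptides from their C-terminal end and is stored with Cma1 protein in the granule (NCBI gene 12873, chromosome 3, 20215616 to 20242209). Its PBS values were 2.2, 0.739 and 1.31 FPKM and its sHA-X values 3.38, 4.51, 2.62 and 3.66 FPKM. As for Mcpt4, PBS replicate 2 was the lowest and sHA-X replicate 2 the highest library. The means were 1.42 ± 0.738 and 3.54 ± 0.777 FPKM, a ratio of 2.5, and on the log2 scale they differed by 0.94 (SE 0.22, adjusted p = 0.029 by limma). This was the least stable of the 6 calls, since it was lost in 5 of 7 fits that left out 1 library, with adjusted p up to 0.078. PBS replicate 1 and sHA-X replicate 3 were the libraries whose removal kept it. Summed over the 4 mast cell proteases, the level was 2.08 to 4.17 FPKM in PBS libraries and 10.4 to 15.1 FPKM in sHA-X libraries.

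Mcpt8 encodes mMCP-8, the granule protease used as a marker of mouse basophils (NCBI gene 17231, chromosome 14, 56082163 to 56085499). It was at 3.15, 3.69 and 2.49 FPKM in PBS libraries and at 1.79, 3.17, 3.64 and 3.13 FPKM in sHA-X libraries, from 48 to 102 reads in every library. sHA-X replicate 1 was the lowest, and the other sHA-X values lay within the PBS range. The log2 change was -0.08 (SE 0.18, adjusted p = 0.82 by limma), and its sign turned without PBS replicate 2 (0.02) and without sHA-X replicate 1 (0.08). In PBS spleens Mcpt8 had the highest mean of the 5 protease genes, at 3.11 ± 0.6 FPKM. In sHA-X spleens, at 2.93 ± 0.794 FPKM, its range overlapped those of Cpa3, Mcpt4, Cma1 and Tpsb2.

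**Figure D2:**
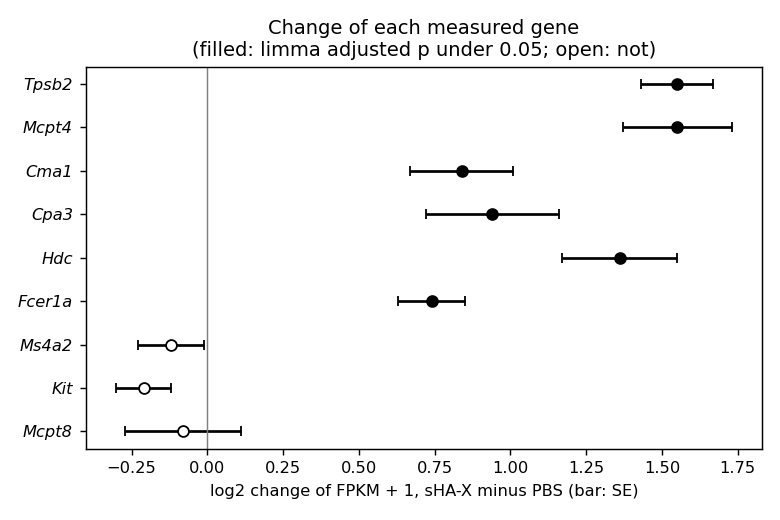
Change from PBS to sHA-X on the log2(FPKM + 1) scale with its standard error for the 9 measured genes, from the limma fit with no filter on low values, with filled points for an adjusted p under 0.05. The filled points are Tpsb2, Mcpt4, Hdc, Cpa3, Cma1 and Fcer1a, all above 0, and the open points are Mcpt8, Ms4a2 and Kit.

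Whether Mcpt8 and the other members differed in their change was asked from the log2 ratio of Mcpt8 to each other gene within a library, on FPKM + 0.1, by a two-sided exact permutation test whose smallest p is 0.0286. Of the 8 pairs, 4 had an unadjusted p of 0.0286, and 0 passed after adjustment over the pairs, where the lowest adjusted p was 0.0571. No pair could pass unless more than 4 were at the smallest p, so the count of 0 is no measure of a lack of difference. Mcpt8 to Tpsb2 was 3.94 ± 0.16 in PBS and 0.33 ± 0.56 in sHA-X libraries, a difference of -3.61. Because Tpsb2 in PBS libraries was near the added 0.1, this difference depended on it and was -1.63 with 1 added and -4.39 with 0.01 added. Mcpt8 to Mcpt4 was 2.54 ± 1.05 and -0.23 ± 0.44, a difference of -2.77, which became -1.63 with 1 added. The other pairs at the smallest p were Hdc, with a difference of -1.65, and Fcer1a, with a difference of -1.36 that became -0.82 with 1 added. In these 4 pairs and in the pair with Cpa3 (-1.47, exact p = 0.0571) the groups did not overlap. In the pair with Cma1 (-1.34, exact p = 0.0857) they did overlap. Against Kit and Ms4a2 the ratio differed by 0.12 and 0.13, with exact p = 0.771 and 0.8.

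**Figure D3:**
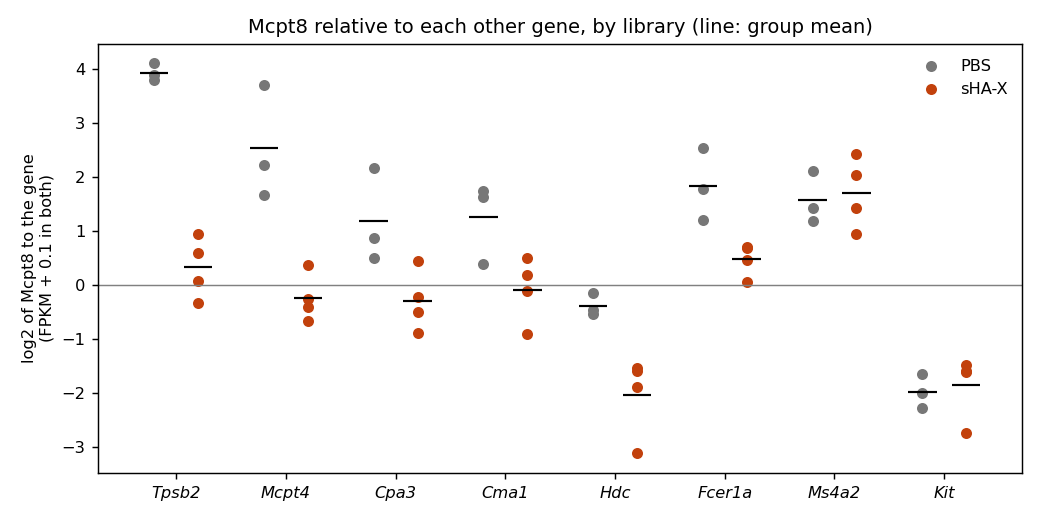
Log2 ratio of Mcpt8 to each of the other 8 measured genes within each library (FPKM + 0.1 in both, a point for each PBS and sHA-X library, a line at the group mean). The sHA-X libraries lie below the PBS libraries for Tpsb2, Mcpt4, Cpa3, Fcer1a and Hdc, and the groups overlap for Cma1, Kit and Ms4a2.

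Mcpt8, Mcpt4 and Cma1 lie in the chymase locus of chromosome 14. Mcpt4 and Mcpt8 are adjacent, with the end of Mcpt4 19.9 kb from the start of Mcpt8, and other genes lie between Cma1 and Mcpt4. Between Cma1 and Gzmb the locus holds 15 protein-coding genes over 320.9 kb, and 5 of them reached a mean of 1 FPKM. Ctsg, the gene of cathepsin G, a protease of neutrophil and mast cell granules, was at 12.3, 12.9 and 6.8 FPKM in PBS and at 20.0, 24.1, 22.9 and 28.2 FPKM in sHA-X libraries. It rose by 1.12 on the log2 scale (adjusted p = 0.022 by limma), and the call was lost in 4 of 7 fits that left out 1 library (adjusted p up to 0.057). Gzmb, the granzyme B gene of cytotoxic cells, did not pass (3.65 ± 1.16 and 6.83 ± 2.5 FPKM, adjusted p = 0.12 by limma), although every sHA-X library lay above every PBS library. The mucosal mast cell protease genes Mcpt1 and Mcpt2 were near 0, with means of 0.156 and 0.0769 FPKM in PBS and 0.119 and 0.173 FPKM in sHA-X libraries. Each of the 10 genes under the filter had a mean of at most 0.15 FPKM over all libraries.

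**Figure D4:**
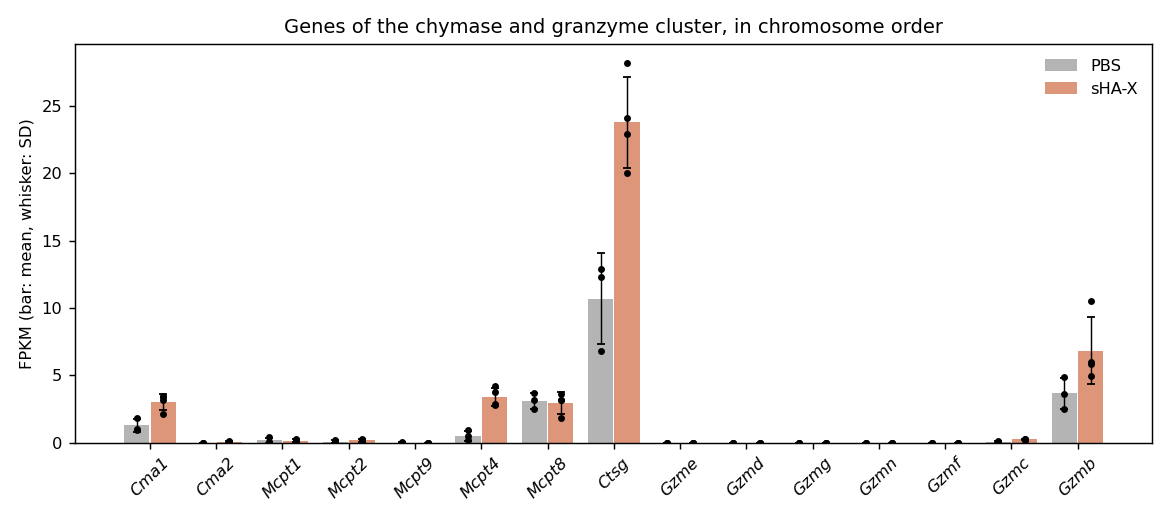
Mean FPKM (bars from 0, with SD and a point for each library) of protein-coding genes of the chymase locus on chromosome 14, in their order along the chromosome, in 3 PBS and 4 sHA-X libraries. Cma1, Mcpt4 and Ctsg are higher in sHA-X, and Mcpt8 overlaps between groups. Gzmb does not overlap between groups but did not pass the test, and the genes under 1 FPKM lie at the base line.

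Among the receptor genes, Fcer1a encodes the α chain of FcεRI, the chain that binds IgE (NCBI gene 14125, chromosome 1, 173221269 to 173227232). It was at 0.847, 0.548 and 1.02 FPKM in PBS libraries, from 28, 18 and 35 reads. In sHA-X libraries it was at 1.71, 1.9, 2.21 and 2.22 FPKM, from 56, 58, 76 and 85 reads. The groups did not overlap, and the spread within each was small against the distance between them. The means were 0.804 ± 0.238 and 2.01 ± 0.25 FPKM, a ratio of 2.5, and the log2 change was 0.74 (SE 0.11, adjusted p = 0.0051 by limma). Ms4a2 encodes the β chain, which amplifies the signal of the receptor (NCBI gene 14126, chromosome 19, 11615517 to 11623790). It was at 1.1, 0.777 and 1.03 FPKM in PBS and at 0.878, 1.11, 0.594 and 0.685 FPKM in sHA-X libraries, and the groups overlapped. Its mean differed by -0.152 FPKM (two-sided exact permutation p = 0.371, where 0.0286 is the smallest possible).

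Kit encodes the receptor tyrosine kinase for Kit ligand (NCBI gene 16590, chromosome 5, 75574987 to 75656722). It was at 12.8, 11.8 and 12.4 FPKM in PBS and at 12.5, 9.79, 10.3 and 9.69 FPKM in sHA-X libraries. Only sHA-X replicate 1 lay in the PBS range, and the other 3 sHA-X libraries were lower. The log2 change was -0.21 (SE 0.09, adjusted p = 0.16 by limma), and without sHA-X replicate 1 it was -0.29 (adjusted p = 0.039). Kit was at 12.3 ± 0.543 FPKM in PBS, the highest mean of all members there. Among 10 markers of haematopoietic progenitors, which also carry Kit, 8 were tested, and 1 was higher, 2 were lower and 5 did not pass. Ly6a, which encodes the surface protein Sca-1, rose from 220 ± 15.3 to 346 ± 10.4 FPKM (adjusted p = 0.00094 by limma). Myb, a factor of dividing progenitors, fell from 21.6 to 15.9 FPKM (adjusted p = 0.013 by limma), a call lost in 1 of 7 fits that left out 1 library (adjusted p = 0.066), and Cd34 did not pass (12.9 and 14.2 FPKM, adjusted p = 0.43). The summed level of the progenitor markers, in which Ly6a is the largest part, was 275.4 to 301.7 FPKM in PBS and 392.8 to 425.2 FPKM in sHA-X libraries. Of 8 erythroid precursor markers, 0 passed, and their sum ranged from 306.2 to 1553 FPKM in PBS and from 572.5 to 1072 FPKM in sHA-X libraries. The part of these cells in the Kit value was not tested.

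Hdc encodes histidine decarboxylase, the enzyme that makes histamine (NCBI gene 15186, chromosome 2, 126593659 to 126624025). It was at 4.38, 4.07 and 3.61 FPKM in PBS libraries and at 16.2, 9.68, 13.6 and 9.19 FPKM in sHA-X libraries, from 320 to 1369 reads in every library. The PBS libraries lay close together, and the lowest sHA-X library was well above them. The means were 4.02 ± 0.385 and 12.2 ± 3.34 FPKM, a ratio of 3.03, and the log2 change was 1.36 (SE 0.19, adjusted p = 0.0047 by limma). In sHA-X spleens Hdc had the highest mean of all members. Hdc and Mcpt4, like Tpsb2, passed in all 18 alternative fits.

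Neutrophils also express Hdc. Of 12 neutrophil markers 2 were higher and 10 did not pass, with a median log2 change of 0.60 against 0.03 over all genes tested. Csf3r, the receptor for granulocyte colony-stimulating factor, was at 11.0, 11.9 and 11.3 FPKM in PBS and at 26.4, 21.1, 24.1 and 18.9 FPKM in sHA-X libraries (adjusted p = 0.0015 by limma). Cxcr2, a chemokine receptor of neutrophils, rose from 10.8 ± 0.229 to 19.1 ± 2.63 FPKM (adjusted p = 0.0025 by limma), whereas the granule gene S100a8 did not pass (1129 ± 289 and 1740 ± 353 FPKM, adjusted p = 0.12). The summed level of the 12 markers was 1975 to 3357 FPKM in PBS and 3435 to 5409 FPKM in sHA-X libraries. S100a8 and S100a9 are the largest parts of this sum, so it mostly follows them. S100a9 did not pass either (1059 ± 299 and 1676 ± 318 FPKM, adjusted p = 0.11 by limma). The sHA-X libraries had the same order for Hdc and for Csf3r, replicates 1, 3, 2 and 4 from high to low. This likeness over 4 libraries was seen after the values were known, and the other neutrophil markers did not share it. The order was 1, 3, 4 and 2 for Cxcr2 and 2, 4, 3 and 1 for S100a8. In the PBS libraries Hdc and Csf3r also differed in order. The part of neutrophils in the Hdc result was not tested.

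**Figure D5:**
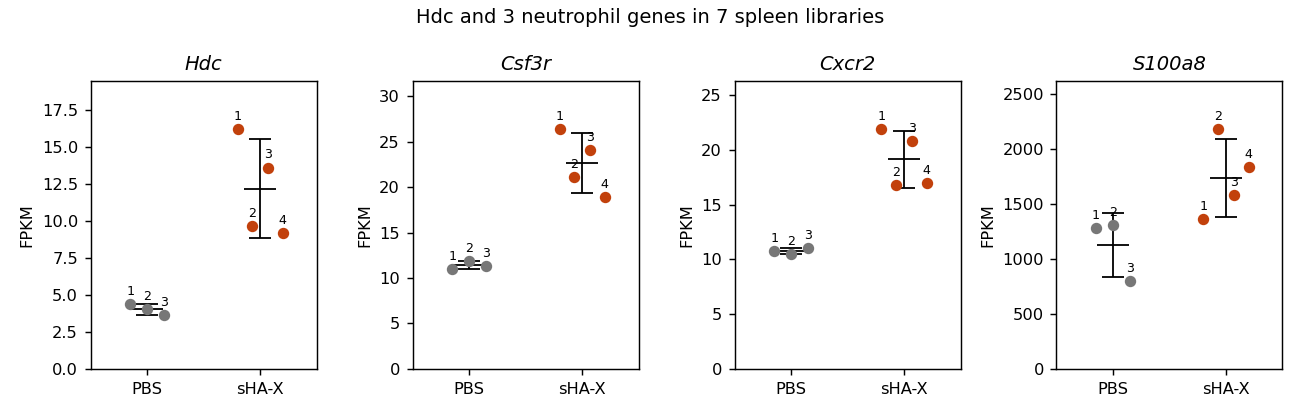
FPKM of Hdc and of the neutrophil genes Csf3r, Cxcr2 and S100a8 in each library (points numbered by replicate, group mean and SD, a separate linear axis from 0 for each gene). All 4 genes are higher in every sHA-X library than in any PBS library, S100a8 by the smallest margin, and sHA-X replicate 1 is the highest library for Hdc, Csf3r and Cxcr2 and the lowest sHA-X library for S100a8.

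Of 12 further granule protease and proteoglycan genes 7 were tested, Ctsg and Ctsc were higher and 5 did not pass, with a median log2 change of 0.10. Ctsc encodes cathepsin C, which activates granule proteases in many immune cells, and rose from 27.6 ± 3.92 to 44.3 ± 2.6 FPKM (adjusted p = 0.0033 by limma). Srgn, the core protein of the granule proteoglycan serglycin, is expressed throughout the blood system and did not pass (122 ± 12.3 and 130 ± 4.0 FPKM, adjusted p = 0.42). Of 9 genes of amine synthesis, storage, breakdown and sensing 3 were tested and 0 passed. Slc18a2, the vesicular transporter that loads histamine into granules, was at 0.458 ± 0.186 FPKM in PBS libraries and 0.441 ± 0.136 FPKM in sHA-X libraries. Tph1, which makes serotonin in mast cells, was at most 0.0284 FPKM in any library. Maob, a monoamine oxidase gene named after its values were seen, was under the filter at 0.193, 0.259 and 0.471 FPKM in PBS and at 0.766, 0.853, 0.967 and 0.878 FPKM in sHA-X libraries. Its groups did not overlap, and with no filter it was higher (log2 change 0.52, adjusted p = 0.011 by limma).

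Of 15 genes of IgE receptor signalling 2 were higher, 1 was lower and 12 did not pass, with a median log2 change of -0.09. Fcer1g, the γ chain that FcεRI shares with Fc receptors of macrophages and other cells, rose from 142 ± 18.7 to 223 ± 5.87 FPKM (log2 change 0.65, adjusted p = 0.0026 by limma). Gab2, an adaptor downstream of the receptor, rose from 6.14 to 8.57 FPKM (adjusted p = 0.011 by limma). Fcer2a encodes CD23, the low-affinity IgE receptor of B cells, and fell from 50.5 ± 5.34 to 25.4 ± 2.96 FPKM (log2 change -0.97, adjusted p = 0.0012 by limma). Of the 3 chain genes of FcεRI, Fcer1a and Fcer1g were higher and Ms4a2 overlapped between groups, with no test of one chain against another.

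Among growth factors and cytokines that act on mast cells and basophils, 2 of 11 were above the filter and both rose. Kitl, the gene of Kit ligand, rose from 19.5 ± 1.74 to 24.8 ± 1.61 FPKM (log2 change 0.34, adjusted p = 0.024 by limma), a call lost in 4 of 7 fits that left out 1 library (adjusted p up to 0.062). Il33, an alarmin of stromal cells that activates mast cells, rose from 7.86 ± 0.887 to 17.7 ± 4.58 FPKM (log2 change 1.05, adjusted p = 0.015 by limma), a call lost without PBS replicate 1 (adjusted p = 0.068) and without PBS replicate 2 (adjusted p = 0.054). Il3, the main growth factor of mouse basophils, Il9 and Il13 were at 0 in every library. Of 8 tested receptor genes for such factors 5 were higher, 1 was lower and 2 did not pass. Of the 5, Il3ra and Crlf2 were each lost in 4 of 7 fits that left out 1 library (adjusted p up to 0.093 and 0.1). Il9r, the interleukin 9 receptor, rose from 5.85 ± 0.826 to 10.1 ± 0.726 FPKM (adjusted p = 0.0028 by limma), and Csf2rb, the β chain shared by the receptors for interleukins 3 and 5 and for GM-CSF, rose from 22.9 ± 1.73 to 31.0 ± 1.68 FPKM (adjusted p = 0.0064 by limma). Il5ra, the interleukin 5 receptor of eosinophils and B-1 cells, fell from 6.34 ± 0.766 to 2.76 ± 0.165 FPKM (adjusted p = 0.00065 by limma). Il1rl1, which encodes the receptor for interleukin 33, did not pass and overlapped (3.62 ± 1.61 and 4.37 ± 1.22 FPKM, adjusted p = 0.62).

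Of 10 transcription factor genes of these lineages 2 were higher, Gata2 and Bhlhe40, and 8 did not pass. Bhlhe40 was lost in 5 of 7 fits that left out 1 library (adjusted p up to 0.13). Gata2 was at 3.1, 3.01 and 3.86 FPKM in PBS and at 4.59, 4.77, 4.08 and 4.2 FPKM in sHA-X libraries, without overlap. Its adjusted p was 0.048 by limma, and the call was lost in 6 of 7 fits that left out 1 library and with no filter (adjusted p = 0.064). Mitf, a factor of mast cells and melanocytes, did not pass (0.992 and 1.38 FPKM, adjusted p = 0.17). Of 6 tested genes of eicosanoid mediators 2 were higher. Ptgs1, cyclooxygenase 1, rose from 11.4 ± 0.439 to 16.8 ± 1.34 FPKM (adjusted p = 0.0029 by limma). Hpgds, which makes prostaglandin D2 in mast cells and also in megakaryocytes and macrophages, rose from 7.01 ± 1.18 to 10.9 ± 2.02 FPKM (adjusted p = 0.043 by limma), and that call was lost in 6 of 7 fits that left out 1 library and with no filter (adjusted p = 0.064). Ptgs2, cyclooxygenase 2, was under the filter and did not pass without one, at 0.0201 to 0.0772 FPKM in PBS libraries and 0.144 to 0.99 FPKM in sHA-X libraries (adjusted p = 0.35 by limma).

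Mrgprb2, the receptor by which connective tissue mast cells respond to cationic peptides, had 1, 0 and 0 reads in PBS libraries and 1, 2, 1 and 1 reads in sHA-X libraries, so a difference was not detectable at this depth. Its relative Mrgprb1, named after its values were seen, had 1, 0 and 0 reads in PBS libraries and 19, 10, 4 and 8 reads in sHA-X libraries. Each sHA-X library thus lay above each PBS library, at 0.0286 to 0.142 FPKM against at most 0.00743 FPKM, and in the fit with no filter Mrgprb1 did not pass (adjusted p = 0.15 by limma). Mrgprx2, named likewise, had 0 reads in every PBS library and 6, 4, 5 and 0 reads in sHA-X libraries (adjusted p = 0.36 with no filter by limma), and Mrgprx1 was at 0 in every library. Of the 5 tested genes among 11 connective tissue mast cell receptors and markers, Cd63 rose from 57.5 ± 6.23 to 96.6 ± 9.76 FPKM (adjusted p = 0.0026 by limma). Cd63 encodes a granule membrane protein present in many cell types. Rab27b and Gp1ba, which platelets also express, fell, Rab27b from 5.16 ± 0.468 to 2.67 ± 0.381 FPKM (adjusted p = 0.0028 by limma) and Gp1ba from 3.34 ± 0.508 to 2.1 ± 0.32 FPKM (adjusted p = 0.025 by limma). The Gp1ba call was lost in 5 of 7 fits that left out 1 library (adjusted p up to 0.1). The other 2 did not pass. Of 5 mucosal mast cell markers 2 were tested and 0 passed.

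Of 8 tested basophil markers 3 were higher, 1 was lower and 4 did not pass, with a median log2 change of -0.17. Of the 3 that were higher, Fcer1a is also expressed in mast cells, Il3ra in progenitors and plasmacytoid dendritic cells, and Ifitm1 in many cell types. The part of these cells in the 3 calls was not tested. Ifitm1 rose from 42.2 ± 2.37 to 101 ± 12.9 FPKM (adjusted p = 0.00042 by limma). Prss34, the gene of mMCP-11, a tryptase of mouse basophils, was at 3.86, 4.1 and 2.25 FPKM in PBS and at 2.02, 2.97, 2.94 and 1.83 FPKM in sHA-X libraries. Like Mcpt8 it overlapped between groups and did not pass (log2 change -0.35, adjusted p = 0.27 by limma). Itga2, also a gene of NK cells and platelets, fell from 3.84 ± 0.59 to 2.55 ± 0.215 FPKM (adjusted p = 0.023 by limma). When 1 library was left out, the call of Itga2 was lost in 3 of 7 fits (adjusted p up to 0.096) and that of Il3ra in 4 of 7 (adjusted p up to 0.093). Cd200r3, an activating receptor of basophils and mast cells, was near 0, with means of 0.147 and 0.113 FPKM.

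Markers of other cell types moved between the groups as well. Of 10 fibroblast and connective tissue genes 7 were higher and 0 lower, with a median log2 change of 1.38, and of the 7 calls Col3a1 was lost in 5 of 7 fits that left out 1 library and Col1a1 in 2. Lum, a collagen-binding proteoglycan gene, was at 1.09, 0.286 and 1.01 FPKM in PBS and at 22.3, 16.5, 16.3 and 9.52 FPKM in sHA-X libraries (adjusted p = 0.0018 by limma). The summed level of the 10 genes was 160.9 to 216.1 FPKM in PBS and 400.5 to 579.5 FPKM in sHA-X libraries. Of 8 eosinophil genes 4 were lower, Epx, Ear1, Ear6 and Il5ra, and the summed level of the 8 was 345.7 to 511.9 FPKM in PBS and 214.3 to 311.4 FPKM in sHA-X libraries. When 1 library was left out, Il5ra passed in all 7 fits, whereas Epx was lost in 5 of them, Ear6 in 4 and Ear1 in 2 (adjusted p up to 0.099). Of 8 dendritic cell genes Bst2 was higher and Xcr1, Clec9a and Siglech were lower. The sums of the 8 were 203.8 to 234.5 and 209.0 to 246.8 FPKM. Bst2 is their largest part (131 ± 5.74 and 170 ± 17.6 FPKM), so the sums do not show the fall of the lower genes. Of the dendritic cell calls Xcr1 was lost in 4 of 7 such fits (adjusted p up to 0.058) and Bst2 in 3 (adjusted p up to 0.094). Of 8 genes of NK and cytotoxic T cells, which also store granule proteases, Cd8a was lower, with sums of 141.7 to 176.3 and 128.4 to 144.0 FPKM. The call of Cd8a was lost in 5 of 7 such fits (adjusted p up to 0.1) and with no filter (adjusted p = 0.063). Of 10 pancreatic acinar genes and 7 tested skeletal muscle genes, 0 passed. The part of these cells in the results for mast cell and basophil genes was not tested.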

How the data were processed

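RNA was measured in 7 mouse spleen libraries. Per the labels' protocols, the kit was VAHTS Universal V6 on TRIzol RNA, and strandedness is not given in those sources. Tools listed in the submitters' processing notes, with no role stated, are HISAT2, HTSeq, fastp, DESeq2 and R 3.2.0, and the listed build is mm10. The deposited table gives 1 value per gene and library, with no unit in its header. The values were read as FPKM computed by the authors, because each gene has its own step and its values are whole multiples of it. From these steps whole reads were recovered within 0.05 read for the 16889 genes above 0 in at least 2 libraries.

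The members and the other gene lists were chosen with earlier results of these data known. The test was limma 3.58.1 in R 4.3.3 on log2(FPKM + 1) (trend and robust variance, group as the only term), with Benjamini-Hochberg adjustment over the 11920 genes with a mean of at least 1 FPKM, at 0.05. The count test considered for raw counts was not used on FPKM. Ms4a2, under the filter, and the 8 ratios with Mcpt8 were tested by two-sided exact permutation of the difference in means over the libraries. All members are named, and of each other list a set of genes chosen for their role and some called genes. The plan was to name at most 4 called genes of a list, those with the smallest p, and this was not always kept. Some genes are named because their calls were lost when 1 library was left out, or after their values were seen. Some marker genes of other cells are not reported here by name. Positions and promoters are from RefSeq. Transcripts of GENCODE M21 were compared in stretches of 50 bases to find shared sequence. Alternatives tried were left-out libraries, a replicate block without sHA-X replicate 4, library weights, a fit to the recovered reads, and other scalings, filters and pseudocounts.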

Additional observations from a re-analysis of the deposited data

Results flagged for a closer look

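Among 28 genes checked in the 4 sHA-X libraries, 2 had 1 library far from the others, by the gap to the nearest library as a share of the whole range, where chance gives about 1 in 20. For Mrgprb2 this share was 0.889, from 1 to 2 reads in each sHA-X library. For Cma2 it was 1.0, because sHA-X replicate 2 was at 0.123 FPKM and the other libraries at 0. Both rest on very few reads, whereas the rate of 1 in 20 assumes normally distributed values. With 28 genes checked, such libraries can also arise by chance.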

How the results depend on the processing

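Of the 6 calls among the members, those of Tpsb2, Mcpt4 and Hdc were kept in all 18 alternatives. The members called higher numbered 4 to 6 when 1 library was left out, 4 without both second libraries and 4 with a replicate block, which lost Cpa3 (adjusted p = 0.2 by limma) and Fcer1a (adjusted p = 0.054). Kit was called lower with library weights (-0.24, adjusted p = 0.013 by limma), 1 member against 0, and the members called lower numbered 0 to 1 when 1 library was left out. The change in Mcpt8 ranged from -0.19 to 0.08 when 1 library was left out, and turned sign without PBS replicate 2 (0.02) and without sHA-X replicate 1 (0.08). Over all genes, 1108 higher and 600 lower became 3246 and 2081 with library weights, whose estimation stopped before it converged, 492 and 330 without both second libraries, and 304 and 86 with the replicate block. Quantile normalization gave 938 lower. With 1 library left out the counts were 488 to 1263 higher and 228 to 637 lower. Without a library fewer samples entered, also in the replicate block, which left out sHA-X replicate 4 and added terms for the replicate number. For the other settings the cause was not tested. Replicate numbers did not pair the libraries: same-numbered deviations had correlations of 0.15, -0.214 and -0.286, and 1 of 3 numbers correlated best with itself. The difference in Ms4a2 ranged from -0.25 to -0.0777 FPKM with 1 library left out. With 1 or 0.01 added in place of 0.1, 0 of 8 ratios passed, and the difference for Tpsb2 was -1.63 or -4.39 in place of -3.61. Low PBS read counts limit the fold of Tpsb2 and Mcpt4, and with 3 and 4 libraries no exact test goes below 0.0286.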
